A study of Mus musculus with 8 samples.

Results

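The genes described here drive the formation of somites, the paired blocks of tissue that become vertebrae and trunk muscle, in the presomitic mesoderm of the tailbud. They are Tbx6, Msgn1, Dll1, Notch1, Lfng, Hes7 and Mesp2. Their chromatin was read by ATAC-seq: a transposase, Tn5, cuts DNA where chromatin is open and tags the ends for sequencing. Each gene was represented by a window of 90 to 160 kb of the mm9 mouse genome, and every region that the authors had counted and that overlapped a window was taken, whatever its value. This gave 24 of the 26620 counted regions. The rule used positions only.

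The 4 wild-type libraries came from embryos of genotype WT/WT and the 4 mutant libraries from embryos homozygous for Danforth's short tail, genotype Sd/Sd. All 8 were made from tailbuds at embryonic day 9.5, on the outbred CD-1 background. Danforth's short tail is a semidominant mutation of chromosome 2 that shortens the tail and the vertebral column. Material from a pair of embryos was combined where 1 gave too little, and the sources used here do not say for which libraries. The labels do not say that libraries of a genotype came from separate litters, so each p-value reflects library-to-library spread, which may be technical. WT libraries held 2873918 to 3451166 counts and Sd/Sd libraries 3090233 to 4180434.

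As background, Tbx6 and Msgn1 are transcription factors that commit cells leaving the tailbud to presomitic mesoderm. In these cells the ligand DLL1 on one cell activates the receptor NOTCH1 on the next, and the cleaved receptor works with the DNA-binding protein RBPJ to switch on target genes. Among the targets are Hes7, a repressor that shuts off its own gene and so oscillates with each somite, and Lfng, a glycosyltransferase that modifies Notch. Mesp2 is switched on at the front of the presomitic mesoderm, where it sets the next somite boundary.

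Promoter sequences from RefSeq were found for all 7 genes, with 8 start sites in all since Dll1 has 2. They are given in the GRCm38.p6 build, in which the regions of the counted files are not placed, so a match says nothing of whether a counted region lies there. Motifs were searched on both strands. The core TGGGAA, which RBPJ binds, was present in 25.6% of 32851 RefSeq promoters of the same 300-base length, and the promoters of Lfng, Hes7 and Msgn1 held it. The E-box CANNTG, read by basic helix-loop-helix factors such as MESP2 and MSGN1, was present in 72.3%, and it was found in the promoters of Msgn1, Hes7, Lfng, Dll1 and Mesp2. The N-box CACNAG, bound by factors of the HES family, was present in 42.5%, and the T-box half-site TCACACC, in 3.98%, was in none of the 8 windows. The N-box was in 6 of the 8 windows, those of Msgn1, Hes7, Lfng and 1 Dll1 start with 1 match each and those of Tbx6 and Notch1 with 3 each (at Notch1, matches on opposite strands overlap). Tbx6 and Notch1 held neither the RBPJ core nor the E-box. The 3 promoters with an RBPJ core are shown from 250 bases before to 50 bases after the start, read 5′ to 3′ along the gene, with capitals marking RBPJ cores and E-boxes. Lfng is at chr5:140607091-140607390 on the plus strand, Hes7 at chr11:69120203-69120502 on the plus strand and Msgn1 at chr12:11208899-11209198 on the minus strand, where the RefSeq model begins at the start codon.
Lfng: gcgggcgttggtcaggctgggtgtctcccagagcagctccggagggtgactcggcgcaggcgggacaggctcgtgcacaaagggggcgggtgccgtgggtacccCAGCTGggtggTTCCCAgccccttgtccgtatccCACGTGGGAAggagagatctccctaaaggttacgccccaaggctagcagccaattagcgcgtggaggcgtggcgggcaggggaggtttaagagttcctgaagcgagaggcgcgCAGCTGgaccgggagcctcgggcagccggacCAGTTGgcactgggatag
Hes7: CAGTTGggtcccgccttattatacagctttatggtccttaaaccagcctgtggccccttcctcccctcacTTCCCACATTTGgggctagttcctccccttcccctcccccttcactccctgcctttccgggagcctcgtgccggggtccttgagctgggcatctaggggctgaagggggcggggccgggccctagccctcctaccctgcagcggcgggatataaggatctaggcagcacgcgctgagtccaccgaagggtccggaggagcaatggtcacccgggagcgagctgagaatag
Msgn1: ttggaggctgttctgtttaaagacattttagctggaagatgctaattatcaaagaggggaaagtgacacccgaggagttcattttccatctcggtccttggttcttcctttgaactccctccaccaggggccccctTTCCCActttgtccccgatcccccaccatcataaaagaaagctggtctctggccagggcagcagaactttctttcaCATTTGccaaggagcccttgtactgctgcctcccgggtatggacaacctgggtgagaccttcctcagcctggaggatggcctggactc
The Lfng window carried 2 RBPJ cores and 4 E-boxes, with 1 RBPJ core overlapping the E-box CACGTG, while the Hes7 window carried 1 RBPJ core directly followed by an E-box.

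Open chromatin around the genes was spread unevenly. Regions were numbered from left to right along the chromosome within each window. The Tbx6 window, from 133.88 to 133.97 Mb of chromosome 7, held 6 regions, and the Msgn1 window, from 11.15 to 11.28 Mb of chromosome 12, held 5. There were 3 regions each around Hes7 (68.89 to 68.98 Mb of chromosome 11), Lfng (141.03 to 141.15 Mb of chromosome 5), Dll1 (15.44 to 15.57 Mb of chromosome 17) and Notch1 (26.26 to 26.42 Mb of chromosome 2). The Mesp2 window, from 86.90 to 87.01 Mb of chromosome 7, held 1. The regions covered 5.39% of the Tbx6 window and 5.41% of the Msgn1 window, but 0.572% of the Mesp2 window. The windows together held 28.9 regions per Mb, against 11 per Mb between the first and last region of each chromosome. They are chosen around genes and contain other genes too: in RefSeq gene order Tbx6 is flanked by Ypel3 and Ppp4c, Msgn1 by Kcns3 and Gen1, Hes7 by Per1 and Aloxe3, Lfng by Grifin and Ttyh3, Dll1 by Ermard and Fam120b, Mesp2 by its relative Mesp1 and by Anpep, and Notch1 by Sec16a and Egfl7. No annotation of the mm9 build was used here, so no region was assigned to a promoter, exon or intron, and neither the tailbud's marker genes nor further genes of the Notch, WNT and FGF pathways were examined.

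**Figure D1:**
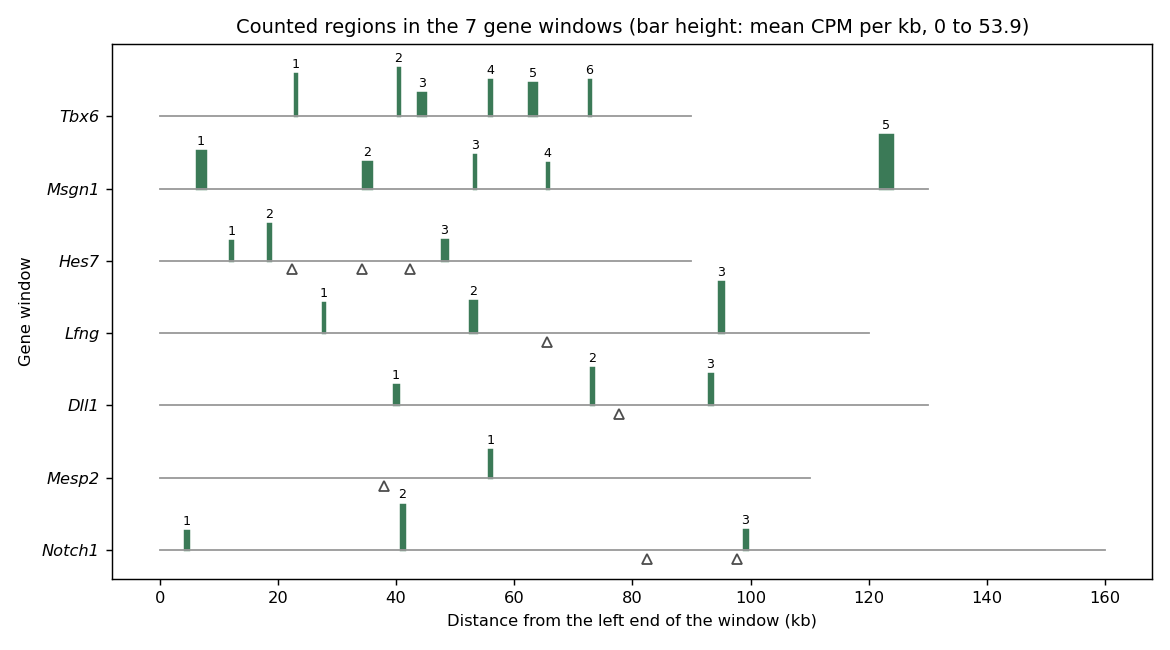
Position of the 24 counted regions (bars, drawn to scale and numbered from the left) along the 7 gene windows, 1 row per window. The x axis gives distance from the left end of each window in kb. Bar height is the mean CPM per kb over all 8 libraries. Open triangles are the 8 intervals of called peaks that were not counted. The Tbx6 and Msgn1 windows hold 6 and 5 regions and the Mesp2 window 1.

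Levels were compared between regions per length, in CPM (counts scaled to the library total) per kb of region. The median over the 24 regions was 33.1 CPM per kb, against 32.9 over all 26620 regions, and 12 of the 24 lay above that overall median. None of the 24 was among the top 10% of all regions and 4 were among the lowest 10%: Hes7 region 1, Dll1 region 1 and Notch1 regions 1 and 3. The level depends on where the authors drew the region's bounds, since a wide region dilutes a narrow peak. Of the region of highest level in each window, Msgn1 region 5 came first, at 58.3 ± 2.84 CPM per kb in WT against 49.5 ± 3.10 in Sd/Sd (here and below, values with ± are the mean and SD of 4 libraries). Lfng region 3 had 51.9 ± 8.28 and 51.0 ± 6.60 CPM per kb, Tbx6 region 2 had 51.7 ± 8.20 and 46.1 ± 6.07, and Notch1 region 2 had 50.7 ± 9.04 and 41.6 ± 4.75. The order of these 4 was not tested, and the regions were not compared within each library. They differ by less than the SD of 1 or both regions over the 8 libraries, and so do Notch1 region 2 and the next one down. Dll1 region 2 followed with 39.7 ± 4.05 and 37.1 ± 3.94 CPM per kb and Hes7 region 2 with 38.4 ± 5.24 and 36.8 ± 6.71, again closer to each other than their spread. Mesp2 region 1 came last, with 31.4 ± 5.52 in WT and 25.4 ± 5.79 in Sd/Sd.

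None of the 24 regions differed between Sd/Sd and WT by the test across the genome. With edgeR's quasi-likelihood test (two-sided, Benjamini-Hochberg over 26620 regions), 0 of 24 had an adjusted p under 0.05, while 0.0188% of all regions did (0.0113% lower and 0.00751% higher in Sd/Sd). DESeq2 and limma with voom also gave 0. An unadjusted p under 0.05 was reached by 2 of the 24, Msgn1 region 5 and Notch1 region 2, both lower in Sd/Sd, where 6.06% of all regions reached it (3.09% lower and 2.98% higher). DESeq2 gave 1 such region and limma 2. Adjusted p-values over the 24 ran from 0.721 to 0.998. The fitted log2 fold change (Sd/Sd over WT) was below 0 at 19 of the 24 regions, while 49.9% of all regions were below 0, and its median was -0.09 over the 24 and 0.00057 over all. The 24 regions lie in 7 windows read in the same 8 libraries, so their signs are not independent. This count was not tested. The 24 changes ran from -0.45 at Hes7 region 1 to 0.14 at Dll1 region 1. In tailbud tissue of mixed cells, a change in the share of a cell type and a change in open chromatin per cell cannot be told apart.

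The intervals show how large a change these libraries leave room for. No 95% interval among the 24 reached a 2-fold difference, and 19 of them did not reach 1.5-fold either (98.1% and 73.8% of all regions, respectively). The other 5, Hes7 region 1, Msgn1 region 4, Lfng region 1, Mesp2 region 1 and Notch1 region 1, left room for a decrease of over 1.5-fold and not for such an increase. The median interval over the 24 reached 0.35 log2 units to each side, a factor of 1.27. The counts behind these values were modest: a region received between 28 counts in 1 library (Hes7 region 1) and 514 in another (Msgn1 region 5), with a median of 79.

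**Figure D2:**
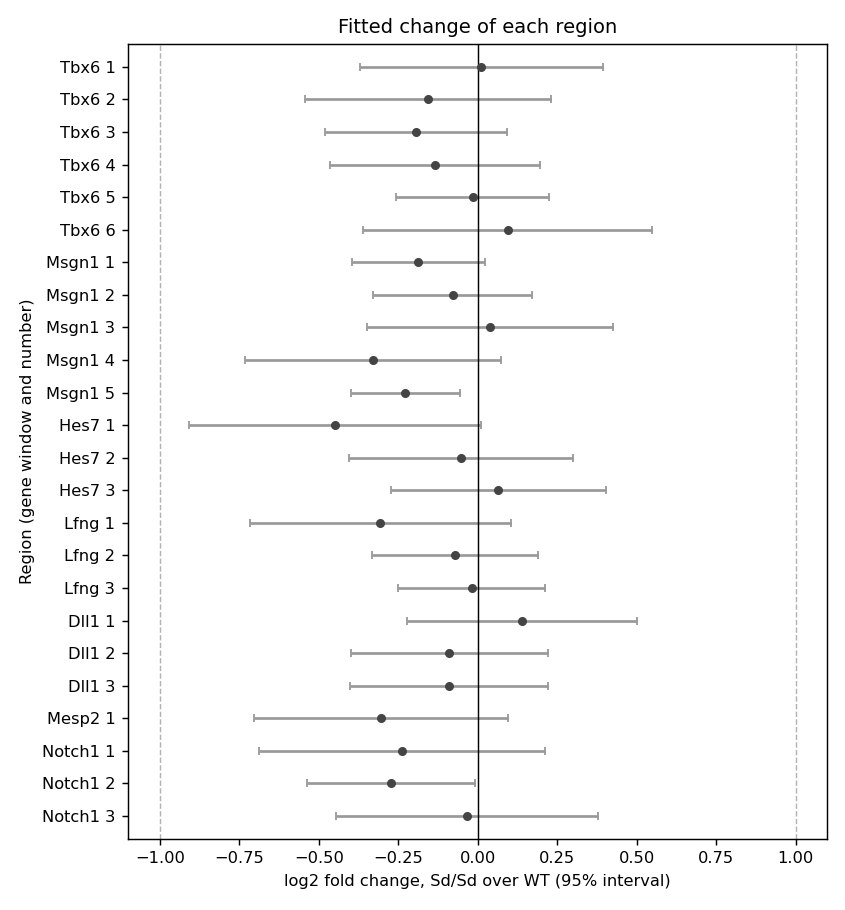
Fitted log2 fold change of each of the 24 regions (Sd/Sd over WT, edgeR, 4 libraries per genotype) on the x axis with its 95% interval, 1 row per region; dashed lines mark a 2-fold change. All intervals stay inside the dashed lines. Of the 24 points, 19 lie left of 0, a count that was not tested.

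Tbx6 is the T-box factor that keeps presomitic cells from becoming neural and switches on Dll1 and Mesp2. At its window's most counted region, region 5 (133942426 to 133943890), the libraries had 46.9, 47.7, 54.6 and 50.1 CPM in WT replicates 1 to 4 and 56.1, 48.9, 48.6 and 42.8 CPM in Sd/Sd replicates 1 to 4. The genotypes overlapped fully, with means of 49.8 ± 3.47 and 49.1 ± 5.44 CPM and a log2 fold change of -0.016 (SE 0.12, 95% interval -0.26 to 0.22, adjusted p = 0.997 in edgeR). Of the 24 regions, 3 had a narrower interval. Region 2 (133920243 to 133920633), the densest of the window, had 17.7, 22.2, 23.7 and 17.3 CPM in WT and 19.4, 19.7, 18.4 and 14.6 CPM in Sd/Sd, a log2 fold change of -0.16 (95% interval -0.54 to 0.23).

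The region with the smallest p of the Tbx6 window was region 3 (133923605 to 133925068), a wide and shallow one. It had 44.9, 39.7, 33.4 and 30.2 CPM in WT and 33.1, 35.9, 30.5 and 29.9 CPM in Sd/Sd. Replicates 1 and 2 of WT stood above all Sd/Sd libraries and the other two WT libraries lay among them, and the log2 fold change was -0.19 (SE 0.14, unadjusted p = 0.18, adjusted p = 0.895 in edgeR). The authors' peak caller placed a peak on this region in 4 of 4 WT libraries and in 1 of 4 Sd/Sd libraries, at low fold enrichments of 2.51 to 2.93 in WT and 2.56 in Sd/Sd replicate 4. The counts on the same region did not pass the test. Regions 1, 4 and 6 had log2 fold changes of 0.011, -0.13 and 0.095.

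Msgn1 encodes mesogenin, a basic helix-loop-helix factor of the posterior presomitic mesoderm that acts with TBX6. The most counted of the 24 regions was region 5 of its window (11271675 to 11274057), near the window's right end. It was at the 97th percentile of all regions by CPM, and at 2383 bp it was also the widest of the 24, so that per kb it was at the 86th percentile. It had 142, 143, 142 and 128.8 CPM in WT and 110.8, 125.6, 112.5 and 123 CPM in Sd/Sd. Every Sd/Sd library lay below every WT library here, the only one of the 24 regions where the genotypes did not overlap. Over all regions the genotypes did not overlap at 3.2%, with Sd/Sd the lower at 1.6%. The means were 139 ± 6.76 and 118 ± 7.38 CPM, 0.853 of the WT level by the fit (log2 fold change -0.23, SE 0.087, 95% interval -0.40 to -0.057, unadjusted p = 0.00909, adjusted p = 0.721 in edgeR). With 1 library left out the log2 fold change ran from -0.26 to -0.20, and the adjusted p over all alternatives stayed at 0.374 or above. Peaks were called there in all 8 libraries, and the WT fold enrichments (4.18 to 4.46) lay inside the Sd/Sd range (3.76 to 4.77). In RefSeq gene order the genes to the right of Msgn1 are Gen1, a DNA-repair nuclease, and Smc6, a subunit of a chromosome maintenance complex, so this region may belong to a gene other than Msgn1.

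The other 4 regions of the Msgn1 window overlapped between the genotypes. Region 1 (11156080 to 11157888) had 64.6, 75.8, 90.1 and 62.4 CPM in WT and 58, 63.4, 73 and 61 CPM in Sd/Sd, a log2 fold change of -0.19 (unadjusted p = 0.0808, adjusted p = 0.859 in edgeR), with WT replicate 3 the highest. Region 4 (11215296 to 11215951) had 18.8, 21.2, 19.5 and 18.2 CPM in WT and 19.7, 12.3, 16 and 13.4 CPM in Sd/Sd. Sd/Sd replicate 1 sat among the WT libraries and the other 3 below them, with a log2 fold change of -0.33 (SE 0.21, 95% interval -0.73 to 0.074, adjusted p = 0.874 in edgeR). A peak was called on it in 3 of 4 WT libraries and only in replicate 1 of Sd/Sd. Regions 2 and 3 had log2 fold changes of -0.079 and 0.039.

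Dll1 encodes the Delta ligand that activates Notch in the presomitic mesoderm. Its densest region, region 2 (15512775 to 15513518), had 26.7, 33.1, 31 and 27.5 CPM in WT and 29.2, 29.4, 23.2 and 28.5 CPM in Sd/Sd, and region 3 (15532759 to 15533648) had 29, 36.4, 26.1 and 27.2 against 30.8, 22.7, 30.5 and 26.8 CPM. Both overlapped between genotypes, with log2 fold changes of -0.089 and -0.091 (adjusted p = 0.978 and 0.977 in edgeR). Region 1 (15479439 to 15480467) had the highest fitted change of the 24, 0.14 (SE 0.18, 95% interval -0.22 to 0.50, adjusted p = 0.963 in edgeR). Its libraries had 27.5, 19.2, 16 and 19.9 CPM in WT and 20, 28.5, 24.1 and 19.1 CPM in Sd/Sd. Peaks were called on it in WT replicate 1 only and in all 4 Sd/Sd libraries, although the counts overlapped and WT replicate 1 was the second highest of the 8.

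Notch1 encodes the receptor of this pathway in the presomitic mesoderm. Its window is the one of the 7 that lies on chromosome 2, which carries the Danforth mutation. Region 2 (26300631 to 26301527) was the densest and most counted of the window, with 49.8, 50.3, 48.4 and 33.4 CPM in WT and 42.2, 32, 38.6 and 36.4 CPM in Sd/Sd. WT replicates 1 to 3 stood above every Sd/Sd library and WT replicate 4 lay at the low end of the Sd/Sd range. The means were 45.5 ± 8.11 and 37.3 ± 4.26 CPM, a log2 fold change of -0.27 (SE 0.13, 95% interval -0.54 to -0.0090, unadjusted p = 0.0428, adjusted p = 0.818 in edgeR). Without WT replicate 4 it was -0.40 with an adjusted p of 0.482 in edgeR, and over the other libraries left out in turn it ran from -0.34 to -0.21. Peaks were called on it in all 8 libraries, and the fold enrichments overlapped (WT 3.87 to 5.05, Sd/Sd 3.81 to 5.10). Regions 1 and 3 were near the lower end of all regions, at 19.4 and 20.7 CPM per kb, with a peak in 1 WT and 1 Sd/Sd library each and log2 fold changes of -0.24 and -0.035.

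Lfng encodes Lunatic fringe, the glycosyltransferase whose oscillation feeds back on Notch. Region 3 (141124413 to 141125477) was the densest of its window and showed the highest fold enrichment of any peak call on the 24 regions, 6.89 in WT replicate 1. It had 55.1, 59.6, 63.3 and 43 CPM in WT and 53.6, 64.4, 50.1 and 49 CPM in Sd/Sd, and the log2 fold change was -0.019 (SE 0.12, 95% interval -0.25 to 0.21, adjusted p = 0.996 in edgeR). Region 2 (141082367 to 141083670) had 42.9, 47.4, 48 and 35.4 CPM in WT and 45, 34, 50.1 and 35.2 CPM in Sd/Sd. Neither region separated the genotypes, and a peak was called on each in all 8 libraries. Region 1 (141057449 to 141057994) had 19.1, 16.6, 18.1 and 20.5 CPM in WT and 11.1, 18.4, 18.4 and 12.4 CPM in Sd/Sd, so that Sd/Sd replicates 1 and 4 were low and replicates 2 and 3 were within the WT range (edgeR log2 fold change -0.31 with an SE of 0.21 and an adjusted p of 0.884).

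Hes7 encodes the repressor at the centre of the mouse segmentation clock. The largest fitted change of the 24, -0.45, was at region 1 of its window (68901800 to 68902468; SE 0.23, 95% interval -0.91 to 0.010, unadjusted p = 0.0554, adjusted p = 0.828 in edgeR). This rested on few counts, 28 to 63 per library. The libraries had 14.5, 20.9, 9.74 and 17.9 CPM in WT and 10.8, 13.9, 9.35 and 12 CPM in Sd/Sd, so WT replicate 3 was as low as the Sd/Sd libraries and the other 3 WT libraries were above all of them. With 1 library left out the change ran from -0.62 to -0.29. A peak was called on it in WT replicates 2 and 4 and in no Sd/Sd library. Region 2 (68908238 to 68908840) had 21.2, 23.5, 27.5 and 20.5 CPM in WT and 26.7, 19.7, 24.4 and 17.9 CPM in Sd/Sd, and region 3 (68937641 to 68938757) had 23.8, 23.8, 28.5 and 19 against 29.7, 21, 23.8 and 23.9 CPM. The genotypes overlapped at both regions, with log2 fold changes of -0.053 and 0.065.

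Mesp2 encodes the factor that fixes the somite boundary and the front-to-back polarity of each somite. The single region of its window (86955649 to 86956277) had 23.5, 17.2, 21.9 and 16.4 CPM in WT and 14.7, 21.4, 13.3 and 14.6 CPM in Sd/Sd. Of the Sd/Sd libraries 3 lay below all WT libraries and replicate 2 lay within the WT range. The means were 19.8 ± 3.47 and 16.0 ± 3.64 CPM, a log2 fold change of -0.31 (SE 0.20, 95% interval -0.71 to 0.094, adjusted p = 0.879 in edgeR). Peaks were called there in 3 of 4 libraries of each genotype.

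**Figure D3:**
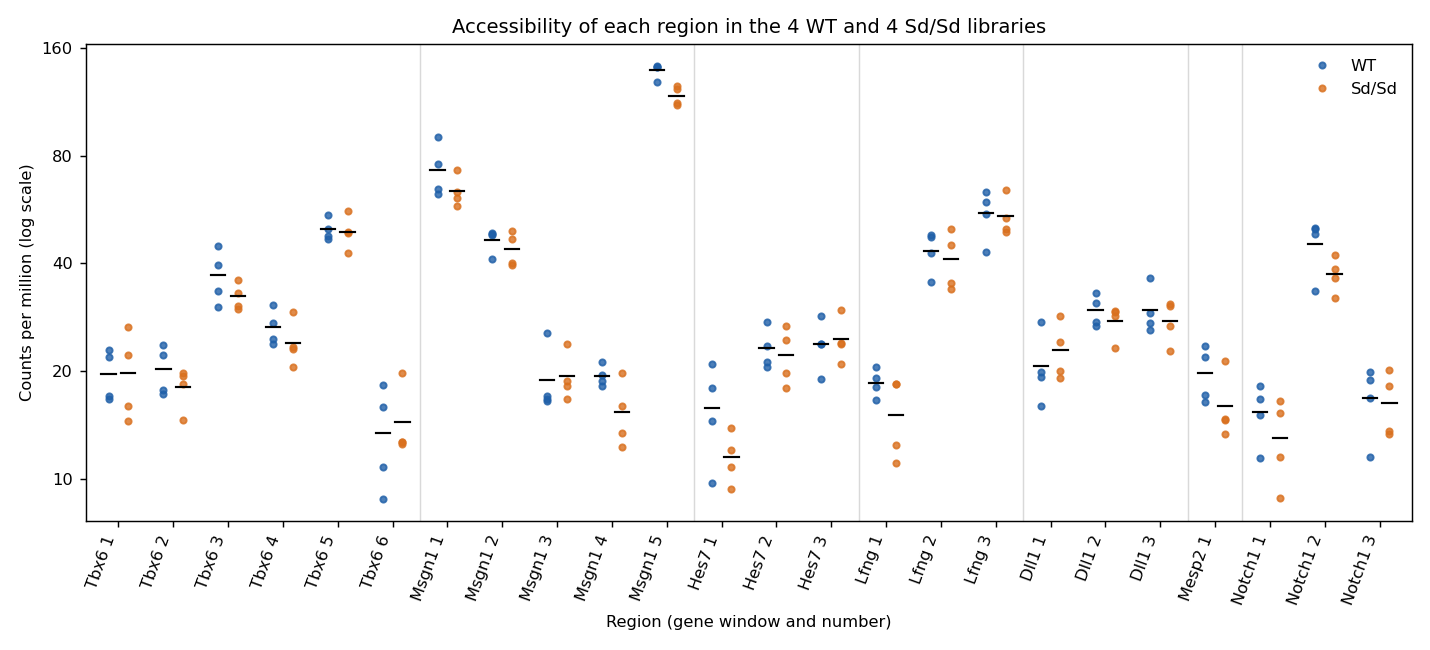
Accessibility of the 24 regions in each library (points; WT blue, Sd/Sd orange; horizontal bars are means of 4 libraries), in CPM on a log axis, with regions on the x axis by gene window and number. Msgn1 region 5 is the only one whose 4 Sd/Sd points lie below all 4 WT points.

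The counts of a window's regions were also summed for each library. For Msgn1 the sums were 283.1, 314.2, 316.6 and 274.4 CPM in WT and 245, 269.2, 272.1 and 255.7 CPM in Sd/Sd, or 297 ± 21.5 against 260 ± 12.6, with every Sd/Sd library below every WT library (log2 difference -0.19, exact permutation test over libraries, two-sided, p = 0.0286). That is the smallest p that 70 arrangements of 4 against 4 libraries can give, it is unadjusted, and it is 1 of 7 windows tested. Region 5 is the most counted of the window and also its region of smallest p in edgeR. Without it the sums were 158 ± 17.3 and 143 ± 12.3 CPM (exact permutation p = 0.2). Leaving it out was chosen after seeing the data.

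For Notch1 the sums were 81.7, 87.4, 76.6 and 64.7 CPM in WT and 70.8, 62.1, 70.3 and 63.4 CPM in Sd/Sd (log2 difference -0.21, exact permutation p = 0.114). WT replicate 4 lay within the Sd/Sd range. Without it the genotypes no longer overlapped and the difference was -0.30. The exact permutation p was then 0.0286, the smallest that 35 arrangements can give, so it adds nothing beyond that separation. With any other library left out the exact permutation p was 0.114 to 0.2. For Mesp2, whose sum is its single region, the log2 difference was -0.31 (exact permutation p = 0.171). The remaining windows differed by less than their spread: 167 ± 13 and 158 ± 18.0 CPM for Tbx6 (exact permutation p = 0.371), 62.7 ± 5.13 and 58.3 ± 6.14 for Hes7 (p = 0.257 in the same exact test), 117 ± 13.2 and 110 ± 9.95 for Lfng (exact p = 0.457), and 79.9 ± 7.37 and 78.2 ± 2.80 for Dll1 (exact p = 0.714). The difference was below 0 in all 7 windows, and for Dll1 it was 0.024 without WT replicate 2 and 0.006 without its most counted region. The 7 sums of a library are scaled by the same total and varied together, so these signs are not independent. Windows elsewhere were not summed, so this count cannot be called high or low.

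**Figure D4:**
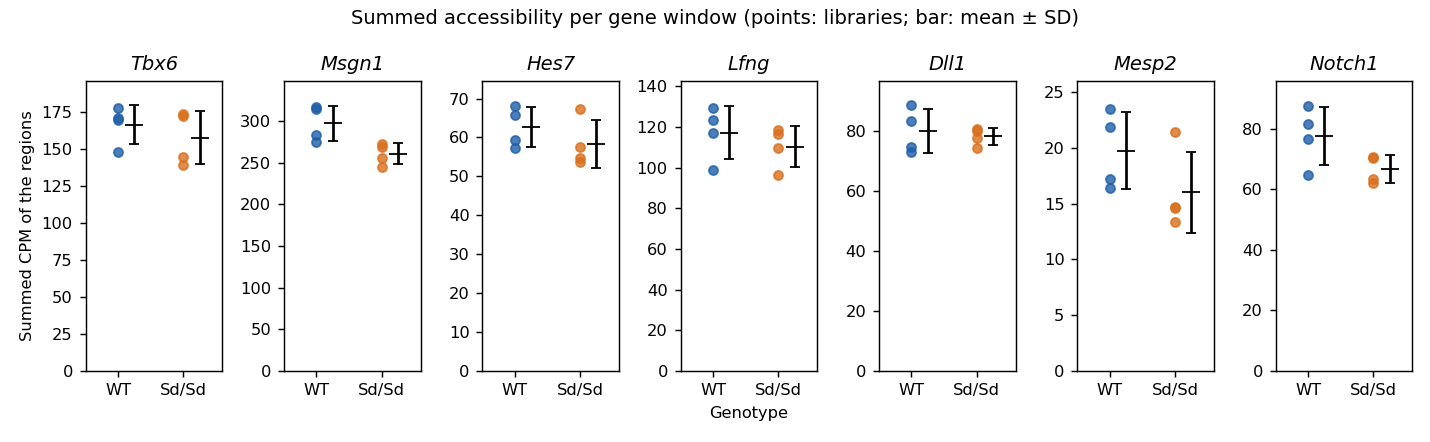
Summed CPM of the counted regions of each gene window (y axis, from 0) for the 4 WT (blue) and 4 Sd/Sd (orange) libraries, with mean ± SD beside the points. In the Msgn1 window all Sd/Sd libraries, at 245 to 272.1 CPM, lie below the WT libraries, at 274.4 to 316.6 CPM; the other 6 windows overlap.

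Over all 24 regions together the libraries had 826, 871, 853 and 734 CPM in WT and 760, 779, 755 and 698 CPM in Sd/Sd. Replicate 4 was the lowest of each genotype, and Sd/Sd replicate 4 was also the library of highest total count; the part of library depth in these values was not tested. The windows varied together over the 8 libraries to unequal degrees, and windows elsewhere were not compared. Pearson's r between the log2 sums of 2 windows ran from 0.0811 (Mesp2 and Hes7) to 0.747 (Notch1 and Hes7) over the 21 pairs, with a median of 0.541. The window most like another was Notch1 for Hes7 and Dll1, Hes7 for Notch1, Lfng for Msgn1 and Msgn1 for Lfng (0.705), and Mesp2 for Tbx6 and Tbx6 for Mesp2 (0.717). These are descriptions over 8 libraries that differ in depth and include both genotypes. The window sums of a library are all scaled by the same total.

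The authors also called peaks library by library. Counts of regions with a peak are given for the 24 only. The same shares over all 26620 regions were not worked out, so these counts cannot be called high or low. Each of the 24 regions carried a peak in at least 2 libraries. Of the 24 regions, 14 carried a peak in all 8 libraries, and no region had peaks in all libraries of one genotype and in none of the other. Peaks were present in 79 of 96 pairs of region and library in WT and 75 of 96 in Sd/Sd. At 18 regions the same number of WT and Sd/Sd libraries had a peak. The 6 others were Tbx6 region 3, Msgn1 region 4, Hes7 regions 1 and 3, with more WT libraries, and Tbx6 region 6 and Dll1 region 1, with more Sd/Sd libraries. Peaks in the windows numbered 22, 22, 17 and 21 in WT and 21, 22, 19 and 20 in Sd/Sd. That was 0.0974%, 0.108%, 0.091% and 0.0851% of each WT library's peaks and 0.0814%, 0.103%, 0.0788% and 0.0658% of each Sd/Sd library's, shares that overlap. The lists were of unequal length, 18682 to 24664 peaks in WT and from 21306 up to 30387 in Sd/Sd. With 18682 top-ranked peaks taken from every library, the mean number of peaks in Sd/Sd minus WT was -0.75 for Tbx6 and Hes7, -0.5 for Msgn1 and Notch1, 0 for Lfng and Mesp2 and 0.75 for Dll1. A peak often spanned part of the counted region: on Msgn1 region 5 the widest peak of a library was 1105 to 1788 bp of 2383 bp.

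**Figure D5:**
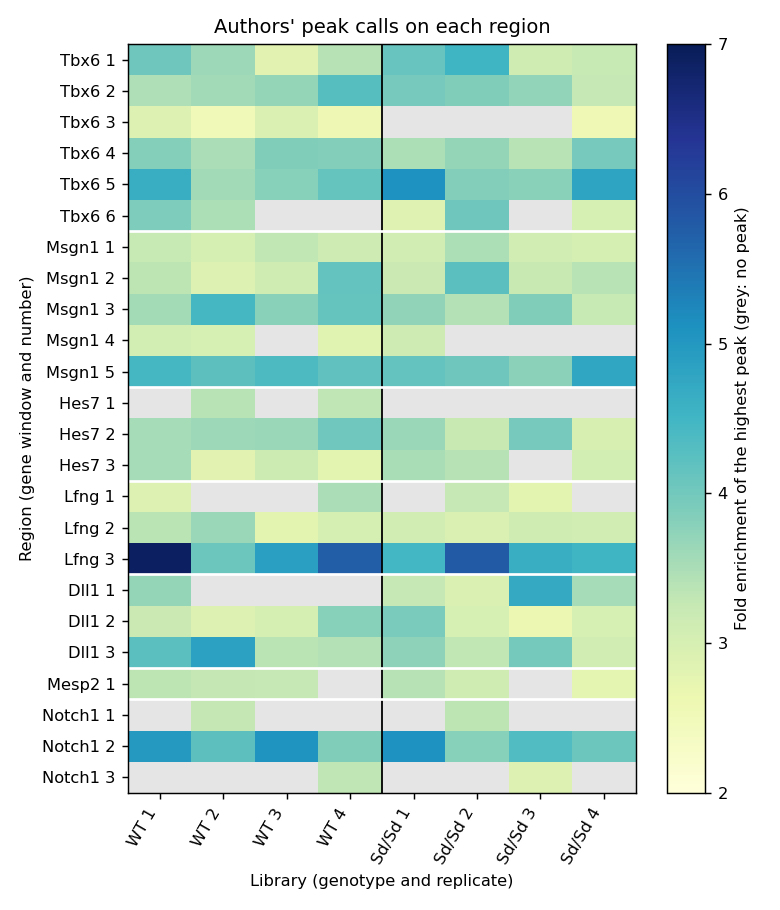
Fold enrichment, as given by the authors' peak caller, of the highest peak on each of the 24 regions (rows) in each of the 8 libraries (columns); grey means that no peak was called. Lfng region 3 in WT replicate 1 has the highest value, 6.89, and 14 rows have a peak in every library.

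Beyond the counted regions, the peak lists held 8 further intervals in the windows, 7 of them called in 1 library only. The exception lay in the Mesp2 window, from 86937586 to 86938375 (790 bp), with a peak in Sd/Sd replicates 1 and 2 and in no WT library. Its fold enrichments were 2.82 to 3.24 and its −log10 q 1.27 to 2.48, and with no counts deposited for it among the files used here the genotypes were not compared there. In RefSeq gene order Mesp1, the related factor of early mesoderm, is the neighbour of Mesp2 on the left. Of the others, 3 were around Hes7, 2 around Notch1 and 1 each around Lfng and Dll1, with fold enrichments of 2.68 to 3.26. No uncounted peak was found in the Tbx6 and Msgn1 windows.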

How the data were processed

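ATAC-seq was done on tailbuds of 4 WT and 4 Sd/Sd libraries. Per the submitters' processing notes, the build was mm9 and the tools included BWA 0.7.15-r1140, MACS2 2.1.1.20160309 and bedtools 2.26.0 (settings and any Tn5 shift: not given in the sources used here). Whole-number counts per region over 26620 shared regions were deposited by the authors, without normalization. What 1 count stands for is not stated. They also deposited, for each library, broad peaks, each with the peak caller's score, its ratio of enrichment (fold), and its p and q on the −log10 scale.

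The windows were given by position. The 7 genes, the windows and the motifs were chosen with earlier results of these data known. Regions overlapping a window by at least 1 bp were kept. CPM are counts over the plain library total. All regions were fitted with edgeR 4.0.16 in R 4.3.3 (quasi-likelihood, robust, TMM, genotype only, all 8 libraries); filterByExpr removed 0 regions, and the procedure was tested on simulated data. DESeq2 1.42.0 and limma 3.58.1 were alternatives, with other scalings, filters, windows, peak thresholds, a replicate block and libraries left out. Named in each window were the region of highest CPM per kb, of highest CPM and of smallest p, and any with an unadjusted p under 0.05; the others are given by values or ranges, and where one is singled out it was chosen after its values were seen. Window sums were compared by exact permutation over libraries. Promoter sequences and gene order are from RefSeq, GRCm38.p6.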

Additional observations from a re-analysis of the deposited data

Results flagged for a closer look

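Of 62 groups of 4 libraries checked (24 regions and 7 window sums in each genotype), 6 held 1 library far from the other 3, where chance gives about 1 group in 20. At Notch1 region 2, WT replicate 4 had 33.4 CPM and the rest of WT 48.4 to 50.3. The same library had 129 CPM at Msgn1 region 5 against 142 to 143. WT replicate 1 had 41.1 CPM at Msgn1 region 2 against 48.0 to 48.7, and WT replicate 2 had 25.5 CPM at Msgn1 region 3 against 16.5 to 17.0. At Tbx6 region 6, the outlying library was Sd/Sd replicate 2 with 19.7 CPM, the rest being 12.5 to 12.7. At Dll1 region 2 it was Sd/Sd replicate 3 with 23.2 CPM, the rest being 28.5 to 29.4.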

How the results depend on the processing

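In the 16 other fits, 0 of the 24 regions passed an adjusted p of 0.05 (of 21 with a mean count of at least 50). The fit without a filter on low counts only repeated the main fit, since filterByExpr had removed 0 regions. At an unadjusted p under 0.05 the count was 2, both lower in Sd/Sd, and 1 with DESeq2. It was 1 to 3 with 1 library left out (1 without WT replicate 2 or Sd/Sd replicate 4). With windows widened by 50000 bp on each side it was 4, but out of more regions than the 24. The share of all regions at that p, 6.06%, was worked out for the main fit only. Over all regions the edgeR count of 5 was 3 with DESeq2, 9 with limma, 15 without robust variance and 2 to 19 with 1 library left out, being 19, 3 and 8 on leaving out WT replicates 1, 2 and 4, and 3, 2, 16 and 9 on leaving out Sd/Sd replicates 1 to 4. With the replicate number as a block it was 23 and still 0 of the 24. The labels do not say what same-numbered libraries share. Deviations of replicates 1 to 4 correlated between the genotypes at 0.00369, 0.00824, -0.00107 and 0.0918. The value for replicate 4 was the highest of any pair of a WT and a Sd/Sd library. Not every library correlated best with its own number, and whether the number marks a batch was not tested. The cause of these shifts was not tested.

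Among the 14 regions named by the rule, changes near 0 turned sign with 1 library left out at Tbx6 region 5 (-0.088 to 0.042), Hes7 region 2 (-0.155 to 0.037), Hes7 region 3 (-0.037 to 0.158), Lfng region 3 (-0.121 to 0.048) and Dll1 region 3 (-0.147 to 0.019). The other regions were not followed in this way. The Dll1 window sum ran from -0.069 to 0.024, and it was 0.006 without its most counted region, an alternative chosen after seeing the data. The Msgn1 window sum lost its unadjusted call as a mean of log2 CPM over regions (-0.165, exact p = 0.0857) and without region 5 (-0.147, exact p = 0.2). Leaving out region 5 was also chosen after seeing the data. With 1 library left out the Msgn1 window sum ran from -0.225 to -0.156. Its exact p was 0.0571 without any 1 Sd/Sd library and 0.0286 without any 1 WT library, out of 35 arrangements. The Notch1 window sum ran from -0.297 to -0.153 and passed only without WT replicate 4. With peaks of q at most 1e-05, the mean number of peaks in Sd/Sd minus WT was 0.5 for Tbx6 (-0.5 with all peaks) and 0 for Dll1 (1 with all peaks), and the pairs of region and library with a peak were 18 in WT and 19 in Sd/Sd. With peaks covering at least 50% of a region the pairs were 51 in WT and 52 in Sd/Sd, against 79 and 75 with any overlap. Hes7 region 1, which held the lowest count of the 24 (28), also had the widest interval (-0.908 to 0.010).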
